A study of Arabidopsis thaliana with 24 samples.

Results

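The genes described are the 29 Aux/IAA repressors of Arabidopsis (IAA1 to IAA20 and IAA26 to IAA34) and the 6 auxin receptors TIR1 and AFB1 to AFB5. They were taken by locus identifier from a table of 33020 loci, in which all 35 were found. Seedlings of 4 genotypes were sampled whole on day 6: the Col-0 wild type, written WT, and mutants labelled pif7, asf1ab and hira. Each genotype either stayed in white light or received 1 hr of shade at a red to far-red ratio of 0.4. RNA sequencing was done on 3 libraries of each of these 8 groups, 24 in all. PIF7 encodes a bHLH transcription factor that acts in the shade response, ASF1A and ASF1B encode histone chaperones, and HIRA encodes a histone chaperone subunit. The labels name no alleles, and nothing in them tells whether libraries of a group came from separate cultures. The p-values therefore speak only of the spread among these libraries, which may be technical. In bulk RNA of whole seedlings, fewer cells of a type and less RNA per cell cannot be told apart.

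Aux/IAA proteins hold auxin-response genes off. They bind the ARF transcription factors at those genes and recruit TOPLESS (TPL) co-repressors through a short leucine motif of the form LxLxL. Auxin acts as glue between an Aux/IAA protein and a TIR1/AFB receptor, the F-box subunit of an SCF ubiquitin ligase. The bound repressor is ubiquitinated and destroyed by the proteasome, which frees the ARFs. Many Aux/IAA genes are themselves turned on by auxin, so that new repressor is made as the old is removed. Shade, sensed by phytochromes, is known to raise auxin synthesis in young leaves through the PIF factors.

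Domain II of an Aux/IAA protein carries the degron, with the core letters GWPP, by which the receptor holds it. This core was found in 23 of the 29 Aux/IAA proteins and was absent from IAA20 (AT2G46990), IAA30 (AT3G62100), IAA31 (AT3G17600), IAA32 (AT2G01200), IAA33 (AT5G57420) and IAA34 (AT1G15050). LxLxL was found in 28 of the 29, all but IAA33. The degron-coding bases are shown for the most shade-raised member (IAA29), another of the 3 most raised (IAA19), the most abundant in white light (IAA7) and the member that fell (IAA28). They were read 5′ to 3′ along the coding strand from the first annotated RefSeq transcript model on TAIR10.1, and capitals mark the GWPP codons.
IAA29: gttgttGGATGGCCACCAgtaaaa
IAA19: gtggtgGGGTGGCCACCGgtttgt
IAA7: gtggtgGGATGGCCACCTgtgagg
IAA28: gtggtgGGATGGCCGCCGgtgaga
These 4 genes share the core but not all of the codons used for it.

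The 250 bases before the annotated start are shown for the 3 members with the largest rises in shade, to which the results below refer. Capitals mark CACGTG (the G-box) and CATGTG, both letters that PIF factors can bind, and TGTCTC and TGTCGG, both letters that ARFs can bind, on either strand. All sequences are given 5′ to 3′ on the strand of the gene. The windows are chr4:15583082-15583331 (plus strand, IAA29), chr3:5263751-5264000 (plus strand, IAA19) and chr1:19673653-19673902 (minus strand, IAA6), from the RefSeq annotation of TAIR10.1.
IAA29: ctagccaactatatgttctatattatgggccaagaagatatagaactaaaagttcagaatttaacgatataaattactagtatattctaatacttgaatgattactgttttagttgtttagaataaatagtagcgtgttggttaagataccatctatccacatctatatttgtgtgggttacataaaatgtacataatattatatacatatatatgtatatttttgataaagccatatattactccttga
IAA19: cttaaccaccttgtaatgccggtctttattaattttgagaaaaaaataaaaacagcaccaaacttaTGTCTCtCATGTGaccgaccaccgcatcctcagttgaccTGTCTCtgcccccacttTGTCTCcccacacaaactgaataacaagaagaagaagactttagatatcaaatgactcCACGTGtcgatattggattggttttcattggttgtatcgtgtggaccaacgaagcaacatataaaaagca
IAA6: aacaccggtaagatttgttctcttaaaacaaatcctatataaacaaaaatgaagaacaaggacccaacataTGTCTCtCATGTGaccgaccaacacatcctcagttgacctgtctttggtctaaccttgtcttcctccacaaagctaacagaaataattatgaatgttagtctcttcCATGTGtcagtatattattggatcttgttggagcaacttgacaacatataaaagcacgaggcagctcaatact
IAA19 and IAA6, whose proteins are 59.6% identical, share an unbroken run of 23 bases here that holds TGTCTC and CATGTG, from -181 to -159 in IAA6 and from -186 to -164 in IAA19 counted back from the start. No other pair of these 3 windows shares a run of more than 8 bases. IAA19 also has CACGTG at -70. The IAA29 window holds none of the 4 motifs. Over all 29 Aux/IAA windows, extended to 50 bases after the start, TGTCTC was present in 12, against 14.2% of 27443 promoters of protein-coding genes cut in the same way. TGTCGG was in 6, against 5.12% of all promoters, CATGTG in 7, against 12.9%, and CACGTG in 5, against 7.68%. A match is a string of letters and not a binding site that was measured.

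Levels are the authors' FPKM, fragments scaled for gene length and library size, so that genes can be compared. Changes are differences of log2(FPKM + 1) ± standard error. They come from limma, fitted across all 19126 loci with a mean of at least 1 FPKM. A gene was called at a Benjamini-Hochberg adjusted p below 0.05. On this scale a gene near 0 FPKM shows less change than its FPKM ratio would, and ratios of mean FPKM are given for some genes as well. Of the 35 genes, 31 were tested: 25 Aux/IAA genes and all 6 receptors. IAA15 (AT1G80390), IAA20, IAA31 and IAA33 lay under the filter. A filter on the mean also keeps genes that are high in 1 group only. Reads of close relatives may be shared between them, which leaves the split between AFB2 and AFB3 (86.1% protein identity), IAA20 and IAA30 (83.0%), IAA7 and IAA14 (80.7%) and AFB4 and AFB5 (78.8%) uncertain.

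Per library, summed FPKM ranged from 778266 to 893997, and Pearson's r between libraries of a group from 0.951 to 0.982 on the log scale. The 3 shoot and 5 root markers checked for whole seedlings had group means above 0 throughout, although the root hair genes COBL9 and EXPA7 stayed under 1 FPKM. PIF7 read 0.48 to 1.7 FPKM in the 6 pif7 libraries and 11.2 to 28.8 in those of WT. ASF1B was lower in white-light asf1ab than in WT by -1.87 ± 0.118 log2 and ASF1A by -0.40 ± 0.0978 (adjusted p = 3.67e-09 and 0.00642), while HIRA in white-light hira differed by -0.26 ± 0.0906 (adjusted p = 0.0664). The summed level of 4 seed maturation markers was 45.5 to 254 FPKM in asf1ab and 0.85 to 9.36 in WT. Ribosomal RNA made up 8.32 and 7.27% of summed FPKM in replicates 1 and 2 of white-light hira and less in all other libraries. The median change over all tested loci was 0.12 log2 for shade in pif7 and 0.14 for shade in hira, so results were also computed after rescaling libraries by the median of ratios.

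In white light a few repressors made up most of the Aux/IAA transcript of WT. IAA7 (AT3G23050; AXR2) led with 195, 188 and 187 FPKM. IAA16 (AT3G04730) followed with 145, 144 and 136 FPKM, and IAA8 (AT2G22670) with 150.6, 125 and 122 FPKM. The ranges of IAA16 and IAA8 overlapped, and IAA7 stood above both. IAA9 (AT5G65670), IAA2 (AT3G23030) and IAA17 (AT1G04250; AXR3) came next with means of 97.9, 73.7 and 60.1 FPKM, their library ranges apart from each other. IAA7 alone made up 19.7 ± 0.345% of the summed Aux/IAA FPKM (SD, n = 3) and IAA16 14.7 ± 0.265%. At the other end, 10 of the 29 genes had a mean under 2 FPKM, among them IAA29 (AT4G32280), IAA5 (AT1G15580), IAA6 (AT1G52830) and IAA30.

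**Figure D1:**
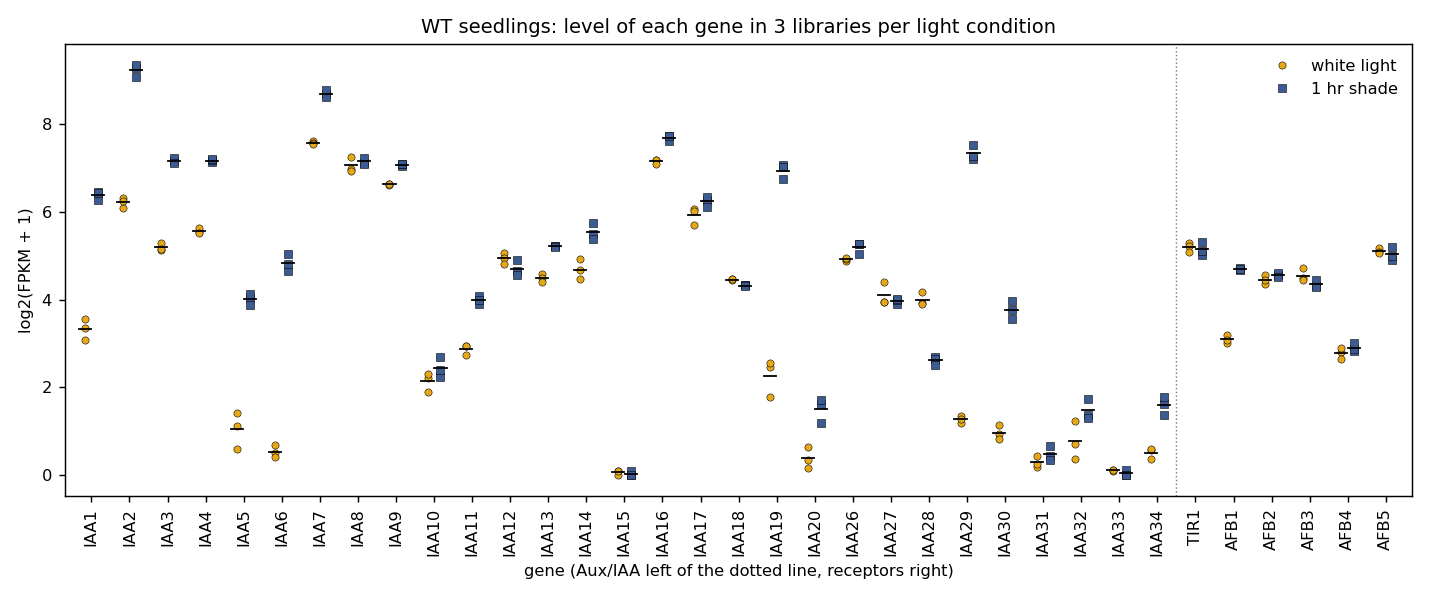
Level of each gene, as log2(FPKM + 1), in the 3 WT libraries of white light (circles) and of 1 hr shade (squares), with horizontal bars at the means of the plotted values. IAA29 goes from 1.41 to 162 FPKM, IAA7 and IAA2 are the most abundant in shade, and the receptors other than AFB1 lie at similar heights in both lights.

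Shade changed the amount and the make-up of the repressor transcripts in WT. Of the 31 genes tested, 20 rose and 1 fell, where 14.9% of all tested loci rose and 11.4% fell. The median change of the 31 genes was 0.71 log2, and that of all tested loci 0.0082. Summed Aux/IAA FPKM went from 964 ± 15.8 in white light to 2484 ± 124 in shade (mean ± SD, n = 3). IAA2 took over as the largest share, from 7.66 ± 0.633% to 24.3 ± 1.17%, IAA29 went from 0.147 ± 0.0155% to 6.504 ± 0.592%, and IAA7 from 19.7 ± 0.345% to 16.6 ± 0.209%.

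**Figure D2:**
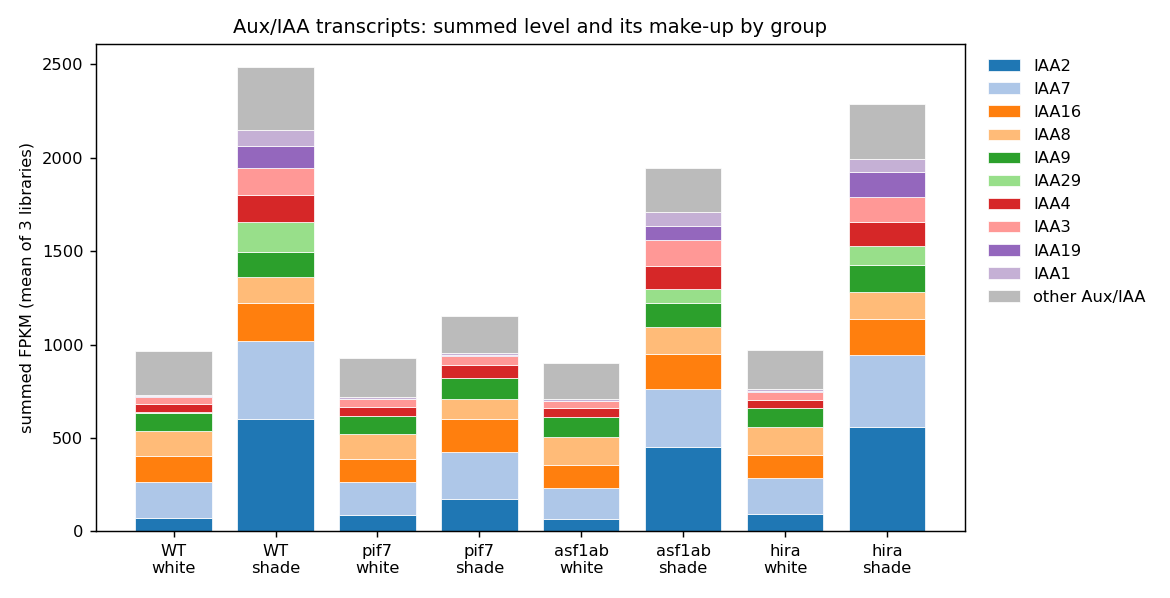
Stacked bars of mean FPKM (n = 3 libraries) summed over the 29 Aux/IAA genes in each genotype and light, with the 10 genes named and the other 19 in grey. The WT bar goes from 964 to 2484 FPKM in shade and the pif7 bar from 930 to 1150.0, while asf1ab reaches 1942 and hira 2287.

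IAA29, a canonical repressor with the degron core, changed most. It read 1.26, 1.55 and 1.43 FPKM in white light and 147, 154 and 184 in shade. The groups lie far apart, a ratio of means of 114 and a change of 6.07 ± 0.21 log2 (adjusted p = 7.95e-14). IAA29 thereby went from rank 20 to rank 4 among the 29 Aux/IAA genes.

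IAA19 (AT3G15540; MSG2), which acts in hypocotyl growth and tropic bending, read 2.42, 4.54 and 4.83 FPKM in white light and 133, 106 and 128 in shade. Its change was 4.68 ± 0.274 log2 (adjusted p = 1.65e-10). The related IAA6 (SHY1) went from 0.62, 0.41 and 0.33 FPKM to 32.0, 24.2 and 27.0, a change of 4.30 ± 0.151 log2 (adjusted p = 8.52e-14). By ratio of mean FPKM the order was the other way, 61.1 for IAA6 and 31.1 for IAA19. All 3 shaded libraries of each gene stood above every white-light library. IAA29, IAA19 and IAA6 thus had the largest rises on both scales, although the IAA29 window printed above shares no long run with the other 2.

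IAA1 (AT4G14560; AXR5) and IAA2, close relatives of 74.6% identity, rose to a similar extent from different levels. IAA1 went from 9.27, 10.7 and 7.45 FPKM to 86.0, 75.6 and 85.7 (3.05 ± 0.126 log2, adjusted p = 7.29e-13). IAA2 went from 67.4, 78.5 and 75.4 to 618, 539 and 654 (3.01 ± 0.0807 log2, adjusted p = 2.49e-15). Their FPKM ratios were 9.01 and 8.19.

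IAA3 (AT1G04240; SHY2) and IAA4 (AT5G43700), 74.0% identical, rose less. IAA3 went from 33.8, 37.8 and 34.8 FPKM to 142, 149 and 137 (1.98 ± 0.144 log2, adjusted p = 3.74e-09). IAA4 went from 45.7, 48.3 and 45.0 to 139, 143 and 146 (1.60 ± 0.0862 log2, adjusted p = 4.65e-11). The 2 genes had overlapping levels in shade and did not overlap in white light.

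Among weakly expressed repressors, IAA5 went from 1.18, 0.5 and 1.67 FPKM to 15.3, 16.5 and 13.6 (2.97 ± 0.225 log2, adjusted p = 6.56e-09). IAA11 (AT4G28640) went from 6.72, 6.66 and 5.68 to 15.8, 13.9 and 14.9 (1.11 ± 0.0889 log2, adjusted p = 1.39e-08). IAA7, the largest of the family in white light, went from 195, 188 and 187 to 413, 388 and 438 (1.12 ± 0.11 log2, adjusted p = 2.43e-07). IAA7 thus went from 189.8 to 412.7 FPKM in the mean, at a ratio of 2.18.

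Smaller rises were called for IAA14 (AT4G14550; SLR), which acts in lateral root initiation, IAA13 (AT2G33310), IAA16, IAA9, IAA17, IAA26 (AT3G16500) and the core-less IAA32. These 7 changes ran from 0.28 ± 0.0844 log2 for IAA26 to 0.86 ± 0.165 for IAA14. IAA17 passed narrowly (0.31 ± 0.114 log2, adjusted p = 0.0476), and was called in 6 of 15 alternatives: its call was lost, among others, after rescaling and without any 1 of 3 WT libraries (white light 1, shade 1 and shade 3). The IAA26 call was lost without the same 3 libraries, and that of IAA32 without white light 2 or 3 or shade 2. IAA28 (AT5G25890), known for its part in lateral root founder cells, went the other way. It read 14.1, 17.1 and 13.9 FPKM in white light and 5.42, 5.28 and 4.66 in shade, and fell by 1.39 on the log2 scale (SE 0.126, adjusted p = 8.02e-08).

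The repressors without the degron core split. IAA30 went from 0.92, 1.19 and 0.76 FPKM to 14.6, 10.8 and 12.5 (2.80 ± 0.22 log2, adjusted p = 1.04e-08). IAA34 went from 0.28, 0.48 and 0.5 to 1.59, 2.07 and 2.41 (1.08 ± 0.196 log2, adjusted p = 0.000312), and it shares 156 bases with the neighbouring AT1G15060, a more abundant gene of the same strand that read 14.0 FPKM in both lights. IAA32 read 1.34, 0.29 and 0.63 FPKM in white light and 1.6, 2.31 and 1.48 in shade (0.71 ± 0.226 log2, adjusted p = 0.0253). It overlaps 826 bases of AT2G01210 on the opposite strand, which had means of 1.53 FPKM in white light and 1.45 in shade. IAA20, the relative of IAA30 at 83.0% identity, was under the filter with 0.57, 0.12 and 0.26 FPKM in white light and 1.29, 2.07 and 2.26 in shade. With no filter its change was 1.12 ± 0.189 log2 (adjusted p = 0.000264). IAA31 and IAA33 stayed at 0.58 FPKM or less in the WT libraries, as did IAA15, which has the core.

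The other Aux/IAA genes, IAA8, IAA10 (AT1G04100), IAA12 (AT1G04550; BDL, an embryonic root regulator), IAA18 (AT1G51950) and IAA27 (AT4G29080), were tested and not called in WT. Their changes ran from -0.24 ± 0.0974 log2 for IAA12 to 0.30 ± 0.131 for IAA10. The closest to a call was IAA12 (adjusted p = 0.0778). IAA8, at 138, 148 and 136 FPKM in shade, was thus an abundant repressor with a change of 0.09 log2 (95% interval -0.15 to 0.33).

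Of the 6 receptors, AFB1 alone was called in WT. As 14.9% of all tested loci rose and 11.4% fell, 1 rise among 6 is near the share of all loci. AFB1 (AT4G03190), a receptor known for fast, non-transcriptional auxin responses in roots, read 7.08, 8.07 and 7.44 FPKM in white light and 24.4, 25.5 and 25.0 in shade. Its change was 1.61 ± 0.136 log2 (adjusted p = 2.89e-08) at a ratio of 3.32, and its share of summed receptor FPKM went from 5.99 ± 0.637% to 17.9 ± 0.836%. AFB1 overlaps 423 bases of AT4G04455, a non-coding RNA on the opposite strand that went from 12.9 ± 1.31 to 31.8 ± 8.61 FPKM (1.21 ± 0.219 log2, adjusted p = 0.000337). The sources used here do not give whether reads were counted by strand, so reads from the 2 genes cannot be told apart and the AFB1 value is uncertain.

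TIR1 (AT3G62980), the first auxin receptor identified, read 38.0, 36.2 and 32.9 FPKM in white light and 31.2, 39.0 and 33.7 in shade. AFB5 (AT5G49980) read 35.3, 32.9 and 32.5, then 29.03, 35.7 and 30.8. Both pairs of groups overlapped. AFB2 (AT3G26810) read 22.7, 19.6 and 20.7 FPKM, then 22.4, 23.4 and 21.7, and AFB3 (AT1G12820) 25.3, 21.3 and 20.7, then 18.9, 20.6 and 18.5. AFB4 (AT4G24390) was lowest with 5.99, 6.49 and 5.23, then 6.15, 6.3 and 7.07. None of these 5 was called, and their 95% intervals lay between -0.42 and 0.33 log2. AFB3 and AFB4 also overlap other genes on the opposite strand, by 638 and 644 bases, as do IAA13 (1176 bases), IAA3 (640) and IAA10 (619).

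**Figure D3:**
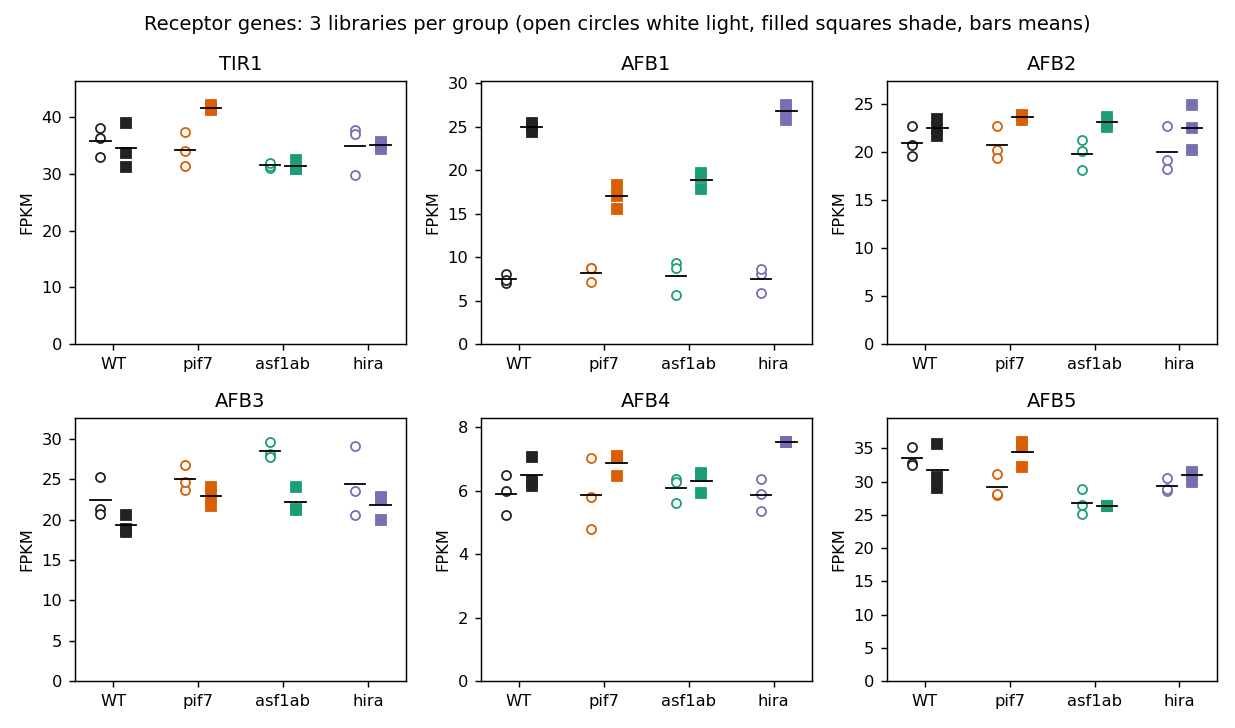
FPKM of the 6 receptor genes in every library, by genotype, with open circles for white light, filled squares for 1 hr shade and bars at the means of 3 libraries. AFB1 is higher in shade in all 4 genotypes, with 15.6 to 18.4 FPKM in shaded pif7 and 24.4 to 25.5 in shaded WT.

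In the machinery around these proteins no called change reached 1 log2 unit in WT. Called were 2 of 5 co-repressor genes, 2 of 9 genes for SCF subunits and regulators, and 3 of 5 for activating ARFs. Of all tested loci 14.9% rose and 11.4% fell. Of the 5 co-repressor genes, TPL rose by 0.27 ± 0.0832 log2 and TPR4 changed by -0.35 ± 0.0983. Of 9 genes for SCF subunits and their regulators, ASK2 rose by 0.36 ± 0.0689 and ECR1 by 0.23 ± 0.0705, and none fell. Of 5 genes for activating ARFs, the usual targets of Aux/IAA binding, ARF19 rose by 0.54 ± 0.104 log2, and ARF8 and ARF6 changed by -0.57 ± 0.0601 and -0.32 ± 0.1. These 7 calls held their sign and side of the threshold under rescaling and quantile normalization.

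Members that respond to shade and members that do not can only be described, since the WT call made the classes. At the edge of the call, IAA17 (adjusted p = 0.0476) lay inside and IAA12 (0.0778) outside; at the edge of 1 log2 unit, IAA34 (1.08) lay inside and IAA14 (0.86) outside. The 12 Aux/IAA genes that rose by at least 1 log2 unit had a median level of 5.14 FPKM in white light in WT, against 29.2 for the 7 smaller rises and 20.9 for the 5 Aux/IAA genes not called. The pif7 libraries gave 5.01, 25.8 and 19.8 FPKM for the same 12, 7 and 5 genes in white light. They are no independent check, since the filter and the fitted spread used all 24 libraries. IAA6, IAA30 and IAA34, with means under 1 FPKM in white-light WT, passed the filter on their mean over all libraries. IAA15, IAA20, IAA31 and IAA33 did not pass and belong to none of these classes, so the medians depend on the filter. Levels nonetheless spanned 0.42 to 190 FPKM among the 12, so a low start was not common to all. Their proteins had a median length of 187.5 residues, against 236 for the 7 smaller rises and 267 for the 5 Aux/IAA genes not called. The degron core was present in 10 of those 12, in 6 of the 7, and in all 5 not called. The 4 genes under the filter had a median length of 164.5 residues, and 1 of them held the core. With AFB1 the class of rises of at least 1 log2 unit has 13 genes. CATGTG was in 6 of their 13 windows and in 4 of the other 22, TGTCTC in 6 and 7, CACGTG in 3 and 2, and TGTCGG in 2 and 4.

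Close neighbours in the genome differed. IAA1 and IAA14, on chromosome 4, are transcribed away from each other, 10732 bases apart with 1 gene between, and their proteins are 42.0% identical. IAA1 changed by 3.05 log2 in WT shade and IAA14 by 0.86, from 21.0, 24.5 and 29.2 FPKM to 44.2, 40.6 and 52.6. IAA2 and IAA7, 12510 bases apart on chromosome 3, had 3.01 and 1.12 log2. IAA3 and IAA17, 6388 bases apart on chromosome 1, had 1.98 and 0.31 log2. In each of the 3 pairs 1 partner was thus the more responsive, and the proteins of a pair (39.8 to 45.0% identity) were less alike than IAA1 and IAA2, IAA3 and IAA4, or IAA7 and IAA14 (80.7%), none of which are neighbours.

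In pif7 most of the large rises seen in WT were smaller, as tested below. Called with a change of at least 1 log2 unit was 1 of the 31 genes tested, against 14 in WT (13 rises and the fall of IAA28). The share of all tested loci at this size is not given, so these counts have no background beside them. Of the 31 tested, 12 rose and 4 fell, where 29.9% of all tested loci rose and 13.6% fell. After rescaling, 6 rose and 5 fell. Rises were 68.8% of all called loci before rescaling and 48.2% after it. Of the 20 genes that rose in WT, 9 rose in pif7, 2 fell (IAA1 and IAA17) and 9 were not called. Summed Aux/IAA FPKM was 930 ± 73.4 in white light and 1150.0 ± 24.7 in shade. The summed level of the 3 shoot markers was 14390 to 16180 FPKM in shaded pif7 and 20790 to 23380 in shaded WT, and that of the seed markers 26.2 to 30.1 and 6.77 to 9.36; their part in these results was not tested.

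IAA29 in pif7 went from 1.79, 1.19 and 1.52 FPKM to 4.81, 3.43 and 4.05. It rose by 1.03 ± 0.21 log2 (adjusted p = 0.000762), to 2.53% of its shaded WT mean. IAA19 read 5.58, 3.3 and 1.92 FPKM in white light and 7.11, 5.85 and 5.39 in shade (0.70 ± 0.274, adjusted p = 0.0454), and IAA6 0.34, 0.34 and 0.25, then 0.76, 0.84 and 0.56 (0.39 ± 0.151, adjusted p = 0.0432). The IAA19 libraries of the 2 lights overlapped, and those of IAA6 did not. The calls of IAA19 and IAA6 held in 5 and 6 of 15 alternatives and were lost after rescaling. That of IAA19 was also lost without pif7 white light 2 or 3 or any 1 shaded pif7 library. That of IAA6 was lost without any 1 white-light pif7 library, or pif7 shade 1 or 2. IAA1 went from 11.5, 10.02 and 9.72 FPKM to 9.13, 7.18 and 6.6 and fell (-0.41 ± 0.126, adjusted p = 0.0135), the reverse of WT. This call held in 12 of 15 alternatives, with limma adjusted p up to 0.0733. It was lost without pif7 white light 1 or pif7 shade 3, and with only the groups compared. IAA2 kept a rise, from 94.3, 83.1 and 90.4 to 182, 163 and 182 FPKM (0.97 ± 0.0807, adjusted p = 3.89e-08).

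The difference between the shade responses of pif7 and WT was tested for each gene. It was called as a smaller response in pif7 for 14 genes and as a larger value for 1, where 2.98% and 3.13% of all tested loci were called in these directions. The largest were IAA29 (-5.04 ± 0.298 log2, adjusted p = 1.23e-09), IAA19 (-3.98 ± 0.388, 1.48e-06), IAA6 (-3.91 ± 0.213, 5.84e-10), IAA1 (-3.46 ± 0.178, 3.64e-10) and IAA5 (-3.42 ± 0.318, 8.35e-07). IAA30 (-2.91 ± 0.311), IAA2 (-2.05 ± 0.114), IAA3 (-1.64 ± 0.204), IAA4 (-1.21 ± 0.122), IAA14 (-1.09 ± 0.234) and IAA34 (-1.05 ± 0.277) followed. IAA11, IAA17 and IAA7 differed by -0.90 ± 0.126, -0.67 ± 0.161 and -0.58 ± 0.156. The IAA7 call was lost without any 1 of 10 libraries, all those of the 4 groups but WT shade 2 and pif7 white light 3. IAA17 lost its call without WT white light 1, pif7 white light 1 or WT shade 3, and IAA34 without WT white light 1, pif7 white light 2, WT shade 2 or 3, or pif7 shade 2. IAA28 had the positive difference (0.76 ± 0.178, adjusted p = 0.0164; lost without pif7 white light 2 or pif7 shade 1), since it fell less in pif7, from 12.04, 10.13 and 14.1 FPKM to 8.28, 8.36 and 5.91. IAA5 read 0.77, 1.39 and 1.5 FPKM in white-light pif7 and 0.35, 0.4 and 1.19 in shade, and IAA14 27.1, 19.3 and 26.8, then 22.2, 19.9 and 19.1, each with overlapping lights. IAA3 read 45.8, 41.2 and 31.4 FPKM, then 46.6, 51.6 and 51.2, and its change in pif7 was not called. IAA4 read 52.5, 54.1 and 44.4, then 65.1, 67.2 and 65.6, a rise that was called and was lost after rescaling. IAA34 had 0.11, 0.39 and 0.65 FPKM in white-light pif7 and 0.57, 0.11 and 0.58 in shade, and IAA30 had 0.97, 1.81 and 0.63, then 0.66, 1.34 and 0.85, so that in both the groups overlapped.

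For IAA9, IAA13, IAA16, IAA26 and IAA32, all smaller responders in WT, the difference between pif7 and WT was not called. IAA9, IAA26 and IAA32 were not called for shade within pif7 either, while IAA16 and IAA13 rose. IAA16 rose by 0.45 ± 0.106 log2 in pif7 and 0.53 ± 0.106 in WT, with a difference of -0.08 (95% interval -0.39 to 0.24). IAA13 rose by 0.50 ± 0.0802 and 0.72 ± 0.0802, with a difference of -0.22 (-0.45 to 0.02). AFB1 read 8.8, 8.8 and 7.14 FPKM in white-light pif7 and 17.1, 18.4 and 15.6 in shade, a rise of 0.96 ± 0.136 (adjusted p = 1.89e-05). Its difference from WT, -0.64 ± 0.192, missed the threshold (adjusted p = 0.0522) and passed it after rescaling. AT4G04455 and AFB1 again cannot be told apart on the shared bases. TIR1 read 31.4, 37.3 and 33.9 FPKM in white-light pif7 and 42.1, 41.2 and 41.5 in shade (0.28 ± 0.0885, adjusted p = 0.016), a call that was lost after rescaling.

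**Figure D4:**
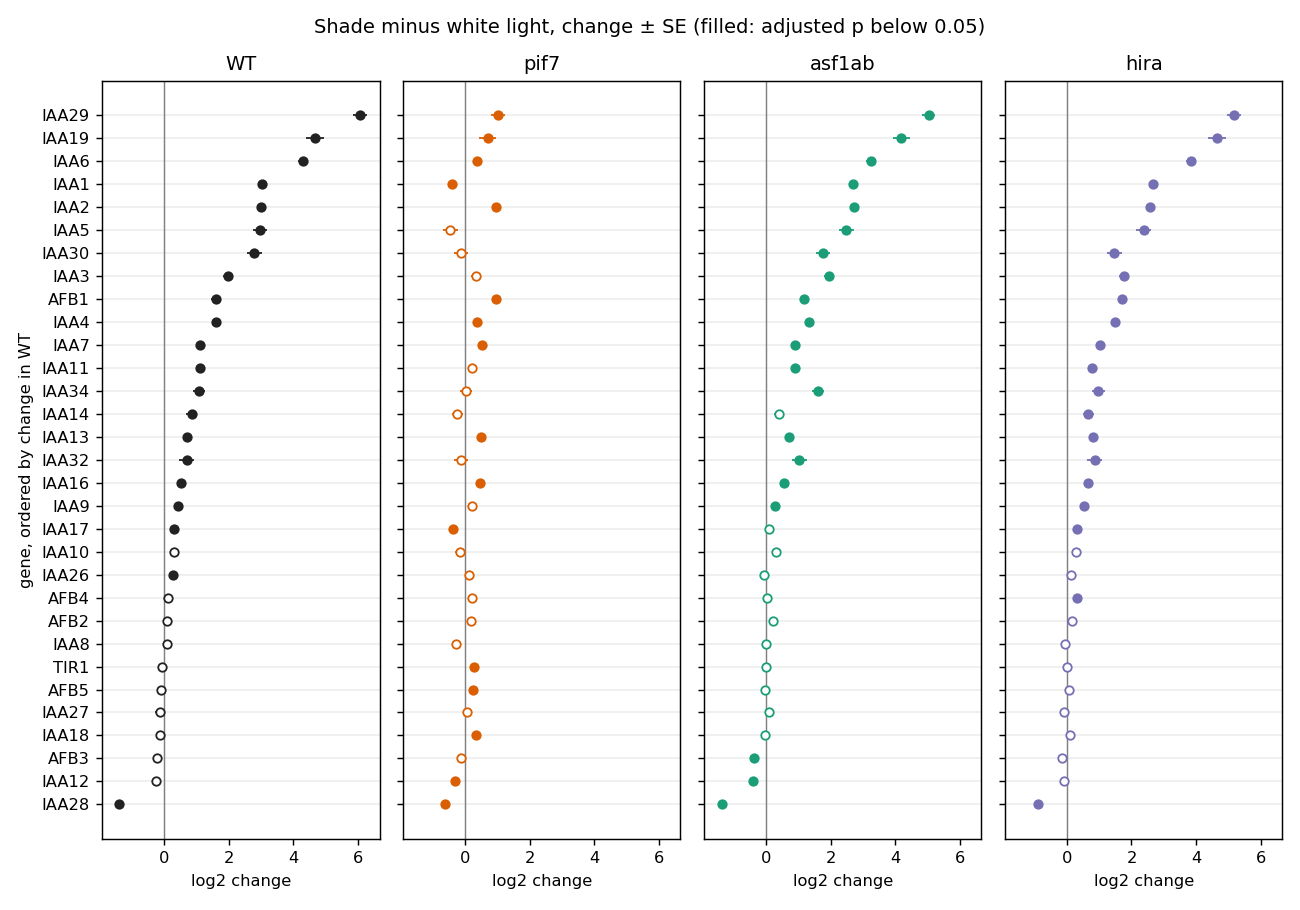
Shade minus white light in log2(FPKM + 1), with standard errors, for the 31 genes tested in each genotype, ordered by the change in WT; filled points have an adjusted p below 0.05. IAA29 heads the WT panel at 6.07 and stands at 1.03 in pif7, 5.04 in asf1ab and 5.18 in hira.

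In white light pif7 and WT did not differ at the threshold in any of the 31 genes by limma (0 called; 7 at an unadjusted p below 0.05), where 0.397% of all tested loci were called. The same count of 0 was found under each alternative run. The changes ran from -0.33 for IAA27 to 0.27 log2 for IAA2. In shade, 19 of the 31 were lower in pif7 and 3 higher, against 6.31% and 10.2% of all tested loci. After rescaling 21 were lower and 1 higher, while the higher share of all called loci went from 61.8 to 38.0%. IAA6 was at 2.598% of its WT mean, IAA5 at 4.27%, IAA19 at 5.0%, IAA30 at 7.51% and IAA1 at 9.27%. IAA28 was higher in pif7 under both scalings, at 147% of WT, while TIR1 and IAA18 were higher only before rescaling. These comparisons use the same WT libraries as the differences in response above.

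In asf1ab most of the response was present. Shade raised 17 of the 31 genes and lowered 3, where 18.8% of all tested loci rose and 12.3% fell. All 17 were among the 20 raised in WT, and IAA14, IAA17 and IAA26 were not called. IAA29 went from 1.61, 1.25 and 0.84 FPKM to 79.2, 59.2 and 78.2 (5.04 ± 0.21 log2, adjusted p = 1.3e-12). IAA19 went from 4.28, 3.87 and 1.76 to 78.5, 67.0 and 79.4 (4.19 ± 0.274, adjusted p = 6.59e-10), and IAA6 from 0.41, 0.43 and 0.07 to 10.5, 9.86 and 14.2 (3.26 ± 0.151, adjusted p = 5.87e-12). Against WT in shade, IAA29 and IAA6 were called lower in asf1ab, as given below. IAA19, at 61.3% of its WT mean, was not called by limma (unadjusted p below 0.05). IAA28 fell by 1.36 on the log2 scale, and AFB3 and IAA12 changed by -0.35 ± 0.102 and -0.39 ± 0.0974.

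The difference in response from WT was called for 1 gene, IAA6 (-1.04 ± 0.213 log2, adjusted p = 0.033), where 0.288% of all tested loci were called lower. The call held in 10 of 21 alternatives, with adjusted p from 0.000345 to 0.777. It was lost without any 1 of 8 libraries: WT white light 2 and 3, WT shade 1 and 3, asf1ab white light 1 and 2, and asf1ab shade 1 and 2. IAA29 and IAA30 had differences of -1.03 ± 0.298 and -1.04 ± 0.311 that were not called (adjusted p = 0.168 and 0.193). IAA3 differed by -0.03 (95% interval -0.46 to 0.39) and IAA16 by 0.04 (-0.27 to 0.35).

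In white light asf1ab was lower than WT in 5 of the 31 genes and higher in 1, against 15.8% and 6.26% of all tested loci. IAA27 read 8.38, 7.3 and 10.7 FPKM in asf1ab and 20.2, 14.5 and 14.4 in WT (-0.82 ± 0.134 log2, adjusted p = 0.000207), and IAA28 7.69, 8.88 and 8.79 FPKM in asf1ab (-0.76 ± 0.126, adjusted p = 0.000254). IAA13, IAA17 and AFB5 were lower by -0.43 ± 0.0802, -0.41 ± 0.114 and -0.31 ± 0.0745. AFB3 was higher, at 29.7, 28.2 and 27.8 FPKM (0.34 ± 0.102, adjusted p = 0.0209). The share of members lower in asf1ab was thus near that of all loci.

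In shade 14 of the 31 genes were lower in asf1ab than in WT, against 15.8% of all tested loci, and 1 was higher, against 9.13%. After rescaling 11 were lower and 2 higher, while the higher share of all called loci went from 36.6 to 45.6%. IAA30 was at 36.5% of its WT mean, with 4.63, 4.76 and 4.45 FPKM (-1.27 ± 0.22 log2, adjusted p = 0.000304), IAA6 at 41.6% (-1.20 ± 0.151, 1.05e-05) and IAA29 at 44.7% (-1.16 ± 0.21, 0.000486). IAA34 was higher, at 4.31, 3.81 and 5.01 FPKM (0.83 ± 0.196, adjusted p = 0.00396). The seed marker sum was 115.8 to 254 FPKM in shaded asf1ab and 6.77 to 9.36 in shaded WT. In white light it was 45.5 to 165.2 in asf1ab and 0.85 to 3.21 in WT. Its part in the differences of these genes was not tested.

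In hira, shade raised 20 of the 31 genes and lowered 1 (IAA28, -0.89 ± 0.126 log2), where 26.0% and 9.55% of all tested loci rose and fell. After rescaling 18 rose and 2 fell. Rises were 73.2% of all called loci before rescaling and 48.7% after it. Of the 20 genes raised in WT, 19 rose in hira and IAA26 was not called. IAA29 went from 1.6, 3.53 and 0.97 FPKM to 102, 96.1 and 108 (5.18 ± 0.21, adjusted p = 7.25e-13), and IAA19 from 4.78, 5.57 and 2.81 to 134, 118 and 139.9 (4.65 ± 0.274, adjusted p = 1.99e-10). The seed marker sum was 21.9 to 39.0 FPKM in shaded hira, and its part was not tested. The shaded IAA19 libraries of hira overlapped those of WT. IAA29 in shaded hira was at 63.2% of its WT mean, a difference that limma did not call (unadjusted p below 0.05). AFB1 went from 8.04, 8.7 and 5.94 FPKM to 25.8, 27.5 and 27.1 (1.71 ± 0.136, adjusted p = 1.06e-08).

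The difference in response between hira and WT was called for IAA30 alone (-1.33 ± 0.311 log2, adjusted p = 0.0412), where 0.685% of all tested loci were called lower. IAA30 read 1.46, 1 and 0.76 FPKM in white-light hira and 5.25, 6.49 and 2.96 in shade. The call held in 7 of 20 alternatives, with adjusted p from 0.00351 to 0.115. It was lost without any 1 of 10 libraries: the 3 of white-light WT, the 3 of shaded WT, white-light hira 1 and 2, and shaded hira 1 and 3. A fit without white-light hira libraries 1 and 2 together, those high in ribosomal RNA, leaves 1 library in that group. Its calls are therefore not read, and the part of ribosomal RNA was not tested. IAA29 had a difference of -0.89 ± 0.298 that was not called (adjusted p = 0.123), and IAA19 one of -0.03 (95% interval -0.84 to 0.78).

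**Figure D5:**
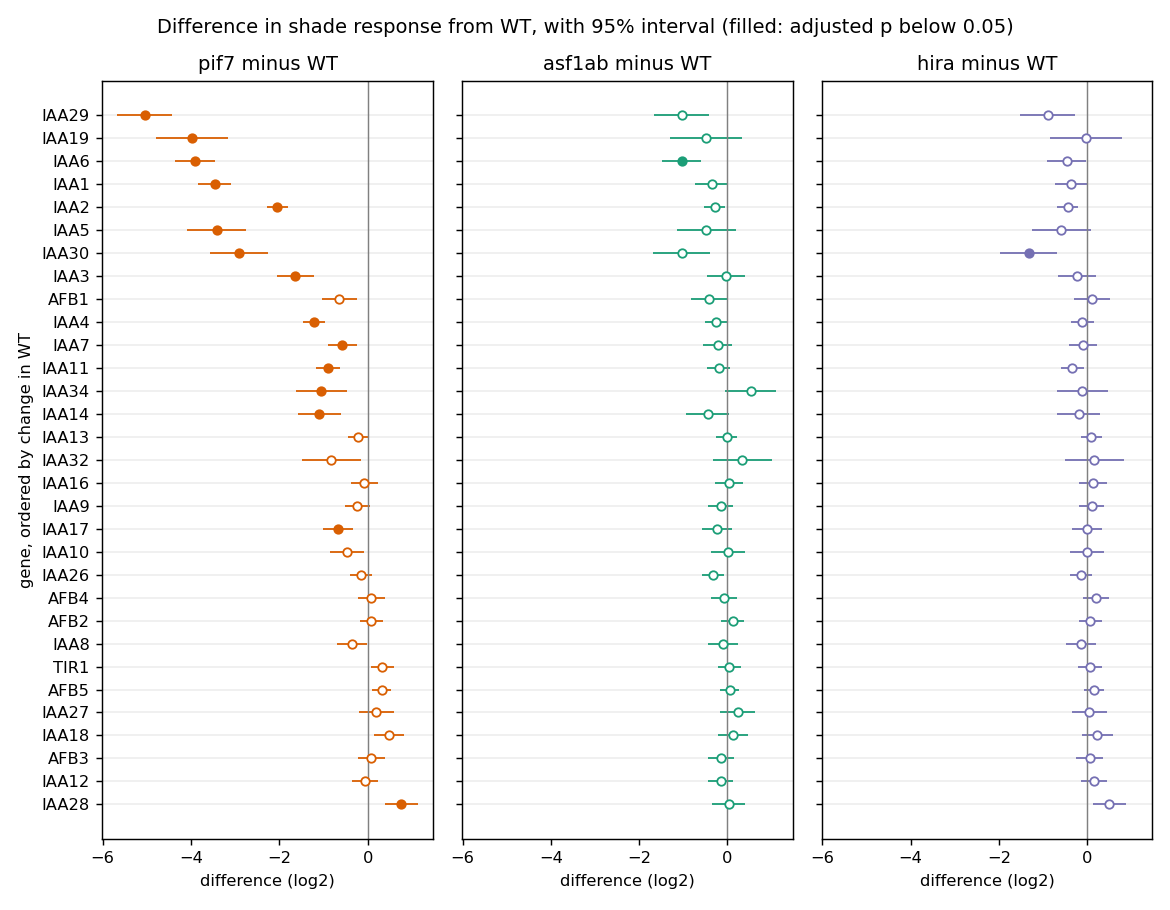
Shade response of pif7, asf1ab or hira minus that of WT, in log2, with 95% intervals, for the 31 genes tested in the order of their WT change; filled points have an adjusted p below 0.05. In the pif7 panel 14 filled points lie left of 0 and that of IAA28 right of it, while the asf1ab and hira panels have 1 filled point each, IAA6 and IAA30.

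Against WT in white light, IAA2 was higher in hira, at 92.2, 98.0 and 89.4 FPKM against 67.4, 78.5 and 75.4 (0.34 ± 0.0807 log2, adjusted p = 0.0122), and IAA28 lower, at 8.03, 7.94 and 9.57 FPKM (-0.75 ± 0.126, adjusted p = 0.000768). Of all tested loci 2.61% were higher and 9.03% lower. The count of called genes was 1 without WT replicate 1 or hira replicate 2. A fit without white-light hira libraries 1 and 2 together leaves 1 library in that group, so its calls are not read. In shade IAA30 (-1.25 ± 0.22, adjusted p = 0.00106) and IAA26 (-0.31 ± 0.0844, adjusted p = 0.021) were lower in hira, 2 of 31 against 6.59% of all tested loci. This count was 1 without WT shade 1 or 3 or hira shade 1 or 2.

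In pif7 8 of the 9 SCF genes and in hira 7 rose in shade, where 29.9% and 26.0% of all tested loci rose. The counts became 3 and 2 after rescaling, ASK2 and ECR1 among them in each. Rises were then 48.2% of all called loci in pif7 and 48.7% in hira, against 68.8 and 73.2% before. The difference in shade response between pif7 and WT was called for none of the co-repressor or SCF genes by limma and for 1 activating ARF gene, ARF6 (0.61 log2, adjusted p = 0.0171), which fell in WT.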

How the data were processed

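RNA of 24 libraries was measured, 3 in each of 8 groups. The authors deposited one table of FPKM values per locus and library, already scaled for gene length and library size. The submitters' processing notes name FastQC, cutadapt, STAR, HTSeq, DESeq2 and the genome build TAIR10, without roles or order. The sources used here give neither their versions nor the strand setting. No column was set aside (0 unused).

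Values were taken to log2(FPKM + 1), and loci with a mean under 1 FPKM were left out. limma 3.58.1 in R 4.3.3 fitted 8 group means with a variance trend over all 24 libraries, with Benjamini-Hochberg adjustment over 19126 loci and a call at 0.05. The fit was tested on simulated data. Depth is not recorded in FPKM, so no counting intervals are given. The main fit did not pair libraries by replicate number. In no comparison did all 3 same-numbered pairs correlate above 0.1, but shade in asf1ab came close (0.095, 0.144 and 0.100). This check cannot decide whether the numbers mark pairs or batches, and counts with a replicate block are given below.

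The genes and lists were chosen with earlier results of these data known. Per-library values are given for genes that changed by at least 1 log2 unit in WT shade or in a difference between responses, and for all receptors. The others are given by ranges, counts or chosen examples. Sequences and overlaps come from the RefSeq annotation of TAIR10.1. The upstream sequence of 1 gene is not reported here. Alternatives were other filters, pseudocounts and scalings, a replicate block, no variance trend, fits of only the groups compared, a threshold of 1 log2 unit, and each library left out.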

Additional observations from a re-analysis of the deposited data

Results flagged for a closer look

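The shade response differed between pif7 and WT, by the test of the difference itself, in 15 genes. The differences in log2 were -5.04 for IAA29, -3.98 for IAA19, -3.91 for IAA6, -3.46 for IAA1, -3.42 for IAA5, -2.91 for IAA30, -2.05 for IAA2, -1.64 for IAA3, -1.21 for IAA4, -1.09 for IAA14, -1.05 for IAA34, -0.90 for IAA11, -0.67 for IAA17, -0.58 for IAA7 and 0.76 for IAA28.

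The same test separated asf1ab from WT in IAA6 (-1.04) and hira from WT in IAA30 (-1.33). Both calls were lost without any 1 of several libraries, as given above.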

How the results depend on the processing

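Single genes were followed where they were called, and in WT shade for all 31 tested. Of these values under the alternatives, 2163 stayed on the same side of the threshold, 221 fell short of it and 3 newly passed it (IAA10 or IAA12 in WT shade). No value called in the main fit or the alternative changed sign. Sign changes of values called in neither were not tallied. Calls gained by other genes are not in this tally. Rescaling gained IAA8 for shade in pif7, AFB3 for shade in hira, AFB1 and IAA2 for the response differences of pif7 and hira, IAA11 for hira in white light, IAA9 and IAA12 for pif7 in shade and IAA32 for asf1ab in shade. The cause was not tested for any change below. Numbers are genes called of those tested. For the shade response of asf1ab minus WT there were 0 with a mean of at least 5 FPKM, 0 with pseudocount 0.1, 3 with pseudocount 5, and 0 when only the groups compared were fitted. For hira minus WT there were 0 with a mean of at least 5 FPKM, with no filter, with pseudocount 0.1, and with only the groups compared, and 2 with pseudocount 5, with rescaling and with quantile normalization. In shade hira differed from WT in 5 genes with pseudocount 5 and in 4 with only the groups compared. Fitting only those groups gave 10 for shade in pif7, 3 for asf1ab in white light and 0 for hira in white light. A threshold of 1 log2 unit left 1, 13 and 11 for shade in pif7, asf1ab and hira, 0 for asf1ab and for hira in white light, and 11, 3 and 1 for the 3 mutants in shade. An alternative chosen after seeing the data left out white-light hira libraries 1 and 2. It left 1 library in that group, so it is part of the tally above and is not read further.

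With each library left out in turn, shade in WT gave 19 to 22, in pif7 11 to 16, in asf1ab 20 and in hira 20 to 21. The differences in response gave 12 to 17 for pif7, 0 to 1 for asf1ab and 0 to 3 for hira, where 3 came without white-light hira replicate 3. White light gave 0 for pif7, 4 to 6 for asf1ab and 1 to 3 for hira, and shade 17 to 19, 11 to 14 and 1 to 2. With the replicate number as a block the counts were 20, 18, 22 and 20 for shade in the 4 genotypes, 16, 1 and 1 for the differences, 0, 6 and 2 in white light and 23, 16 and 2 in shade. Under the block IAA17 was not called for shade in WT or in hira. Precision is limited by 3 libraries a group and an unrecorded depth.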
